A study of Danio rerio with 24 samples.

Results

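The insulin-like growth factor (IGF) axis was followed in the caudal fin of zebrafish during the first 2 days after amputation, in fish with a history of drug-induced diabetes and in control fish. IGF ligands are secreted growth factors that bind a receptor tyrosine kinase, which signals through the PI3 kinase, Akt and MAP kinase routes to growth and protein synthesis. IGF-binding proteins hold the ligands outside the cell and either keep them from the receptor or deliver them to it, so the balance of ligand and binding protein sets how much ligand is free. Many of these genes are present as a pair of copies in zebrafish, marked a and b. In the zebrafish fin, igf2b is known from the regenerating stump, and a working IGF receptor is needed for the fin to regrow.

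The genes were taken by name. They were the ligands igf2a and igf2b, the receptors igf1ra and igf1rb, and the binding protein genes igfbp1a, igfbp2a, igfbp3 and igfbp5b. The platform annotation gave 11 probe sets to these 8 genes, of 8793 genes and 15502 probe sets on the array, its control probe sets left out. A probe set is a group of short probes that report 1 transcript. Expression is given as log2 signal, so a difference of 1 is a 2-fold change, and levels are compared between arrays for 1 probe set and never between probe sets. Of these, 10 reached a log2 signal of 4 on at least 3 arrays and were tested, and the probe set for igf1ra did not.

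The metabolic memory fish were wild-type zebrafish given 5 injections of streptozocin at 350 mg/kg, a drug that kills insulin-producing beta cells, and then kept for 60 days without the drug. Control fish were wild type as well and received an equal volume of citrate buffer per the treatment protocol, although the design text of the series calls them untreated. Both arms were sampled at 0, 12, 24 and 48 h after the caudal fin was cut, which gave 8 groups of 3 arrays. Per the labels, 15 fins were used with triplicates at each time. The labels give no age or sex of the fish and do not say if the triplicates are separate sets of fish; if they are not, the p-values reflect only the spread of repeated measurement.

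Arrays of 1 group correlated at 0.978 to 0.996. The 12 epidermis markers averaged 11.17 to 12.01 on every array. This mean hides krt1-19e, which averaged 12.76 in memory and 12.84 in control fins at 0 h and 5.22 to 7.70 in the later groups. None of the 7 skeletal muscle markers on the array reached the signal needed for testing. The fin fold fibre genes and1 and and2 averaged 12.55 to 12.79 in memory and 12.59 to 12.84 in control fins at 48 h, against 8.44 to 9.04 in memory and 8.64 to 8.95 in control fins at 0 h. The 9 hybridisation control probe sets averaged 9.65 to 9.75 in the groups of 0 and 12 h and 9.24 to 9.38 in those of 24 and 48 h, so for 24 or 48 h against 0 or 12 h, within an arm, the time and this array difference cannot be told apart. In whole fin RNA, fewer cells of a type and less RNA per cell cannot be told apart either.

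**Figure D1:**
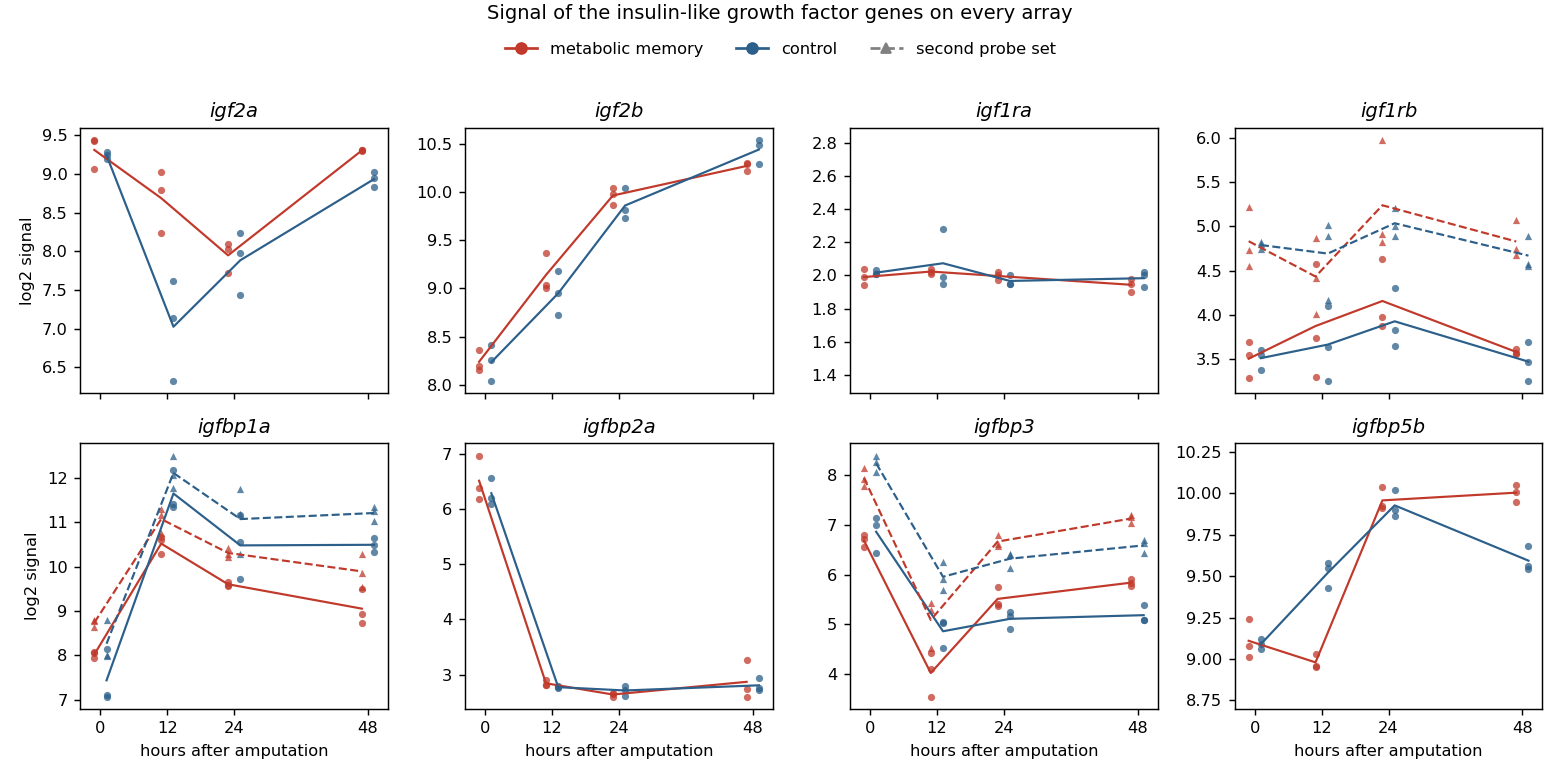
Log2 signal of each of the 8 genes on every array (points) and group means (lines) against hours after amputation, memory in red and drawn just left of control in blue, with triangles and dashed lines for a second probe set. The vertical axes differ between panels. The igf2a values dip at 12 h in control and at 24 h in memory fins, and igf2b climbs in both arms. The igfbp1a means peak at 12 h and are lower in memory fins from then on, with overlap at 24 h on the second probe set. The igfbp2a values drop to between 2.60 and 3.27 after 0 h in both arms.

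The ligand gene igf2a fell after amputation in both arms, and its low point came at 12 h in control fins and at 24 h in memory fins. Its probe set read 9.43, 9.44 and 9.06 in memory fins at 0 h and 8.24, 8.79 and 9.03 at 12 h, then 8.03, 8.09 and 7.72 at 24 h and 9.31, 9.29 and 9.31 at 48 h. Control fins read 9.19, 9.25 and 9.28 at 0 h and 7.14, 6.32 and 7.61 at 12 h, then 7.43, 7.98 and 8.24 at 24 h and 8.83, 8.95 and 9.02 at 48 h. All 3 memory arrays lay above all 3 control arrays at 12 h and at 48 h, and the arms overlapped at 0 and 24 h.

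At 12 h the igf2a signal was 3.16-fold higher in memory than in control fins, a log2 difference of 1.66 ± 0.25 (SE, n = 3 each, adjusted p = 2.78e-05, limma across all tested probe sets). The difference was 0.07 at 0 h, 0.06 at 24 h and 0.37 at 48 h, and none of these passed the test (adjusted p = 0.901, 0.938 and 0.414). In a fit of the 2 groups alone the 48 h difference passed (adjusted p = 0.047). The change in the memory effect from 0 to 12 h was itself called, at 1.58 ± 0.35 (adjusted p = 0.00262). Averaged over the 4 times, igf2a was 0.54 ± 0.12 higher in memory fins (adjusted p = 0.00226), an average carried mostly by the 12 h arrays.

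Against 0 h, the fall of igf2a at 12 h was -0.63 in memory fins (adjusted p = 0.0286) and -2.21 in control fins (adjusted p = 8.21e-08). The memory call at 12 h was lost without memory 0 h replicate 1, memory 0 h replicate 2 or memory 12 h replicate 1, with adjusted p = 0.0808, 0.0862 and 0.176. At 24 h the fall was -1.36 in memory and -1.35 in control fins, with adjusted p = 5.05e-05 and 5.41e-05. At 48 h igf2a was back near its starting level, with a change of -0.01 in memory fins and -0.30 in control fins, neither of them called. In a fit of the 2 groups alone the control change passed (adjusted p = 0.0213).

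Between 12 and 24 h igf2a moved in opposite directions. It fell by 0.74 in memory fins (adjusted p = 0.0214) while it rose by 0.86 in control fins (adjusted p = 0.0173). The difference between these 2 steps was -1.60 ± 0.35 (adjusted p = 0.00409, a comparison added after the values had been seen), and it held when each array concerned was left out in turn. Each step alone was less firm. The memory step lost its call without memory 12 h replicate 2 or 3 or memory 24 h replicate 3, with adjusted p = 0.0663, 0.109 and 0.0916, and the control step without control 12 h replicate 2 or control 24 h replicate 2 or 3, with adjusted p = 0.125, 0.0613 and 0.101. The control step was also lost in a fit of the 2 groups alone (adjusted p = 0.188). From 24 to 48 h igf2a rose by 1.35 in memory and 1.05 in control fins, with adjusted p = 0.000271 and 0.00259.

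The second ligand gene, igf2b, rose over 0 h in both arms. Its probe set read 8.36, 8.20 and 8.16 in memory fins at 0 h and 9.37, 9.04 and 9.01 at 12 h, then 9.98, 9.87 and 10.04 at 24 h and 10.22, 10.30 and 10.29 at 48 h. Control fins read 8.04, 8.26 and 8.41 at 0 h and 8.95, 8.72 and 9.18 at 12 h, then 9.73, 9.81 and 10.04 at 24 h and 10.54, 10.29 and 10.49 at 48 h. Within each arm every time lay above the one before with no overlap, whereas the arms overlapped at all 4 times.

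The rise of igf2b over 0 h was 0.90, 1.72 and 2.03 at 12, 24 and 48 h in memory fins and 0.72, 1.63 and 2.21 in control fins (SE 0.13 each). All 6 changes were called, the weakest being that of control fins at 12 h (adjusted p = 4.23e-05). By 48 h this was a 4.09-fold rise in memory and a 4.62-fold rise in control fins. The last step, from 24 to 48 h, was 0.31 in memory fins and not called (adjusted p = 0.0773), and 0.58 in control fins and called (adjusted p = 0.00149). The memory minus control difference was 0.01 at 0 h, 0.19 at 12 h, 0.10 at 24 h and -0.17 at 48 h. None passed the test, and the 95% confidence intervals ran from -0.26 to 0.27 at 0 h, -0.07 to 0.46 at 12 h, -0.16 to 0.37 at 24 h and -0.44 to 0.10 at 48 h. The 2 ligand genes thus had different time courses in the same samples.

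The receptor genes gave little signal. The probe set for igf1ra read 1.90 to 2.28 over all 24 arrays, with group means between percentiles 5.17 and 7.01 of the probe sets on an array, so no change could be measured with it. The b copy, igf1rb, has 2 probe sets. The first read 3.25 to 4.63 and reached 4 on 4 arrays only, and the second read 4.01 to 5.98.

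No memory minus control difference of igf1rb was called at any time. The differences lay between -0.01 and 0.23 for the first probe set and between -0.26 and 0.21 for the second, with standard errors of 0.26 and 0.27. Over time the first rose at 24 h against 0 h in memory fins, by 0.66 (adjusted p = 0.0325), and the second between 12 and 24 h in memory fins, by 0.81 (adjusted p = 0.0216). Neither call was shared by the other probe set. The first call was lost without memory 0 h replicate 2 or 3 or memory 24 h replicate 3 (adjusted p = 0.0579, 0.114 and 0.194). It was also lost with no filter and with no moderation. The first probe set read 3.28 to 3.69 in memory fins at 0 h and entered the test through arrays of 12 and 24 h alone. Its call thus rests partly on an array that admitted it, and 0.66 does not measure the size of the rise. The second call was lost without memory 12 h replicate 1 or 3 or memory 24 h replicate 2 (adjusted p = 0.121, 0.0506 and 0.177). A fit of the 2 groups alone lost it as well. The group means of the 2 probe sets correlated at only 0.508 over the 8 groups.

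Of the tested genes of the axis, igfbp1a had the largest rise. In mammals IGFBP1 is a liver-made carrier that insulin represses and that fasting and low oxygen induce, and in zebrafish embryos igfbp1a is induced by low oxygen. The first of its 2 probe sets read 8.05, 8.07 and 7.95 in memory fins at 0 h and 10.68, 10.61 and 10.28 at 12 h, then 9.57, 9.59 and 9.66 at 24 h and 9.50, 8.93 and 8.74 at 48 h. Control fins read 7.11, 7.07 and 8.14 at 0 h and 11.36, 12.19 and 11.41 at 12 h, then 11.17, 10.55 and 9.73 at 24 h and 10.49, 10.66 and 10.34 at 48 h. At 12, 24 and 48 h all memory arrays lay below all control arrays, while at 0 h 2 control arrays were lower than every memory array and the third was higher.

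At 12 h igfbp1a had risen 5.67-fold in memory fins and 18.6-fold in control fins over 0 h, log2 changes of 2.50 ± 0.30 and 4.22 ± 0.30 (SE, adjusted p = 2.95e-07 and 1.11e-10). In control fins 36 of the 10140 tested probe sets rose more, and in memory fins 199 did. The rise stood at 1.59 and 1.04 at 24 and 48 h in memory fins and at 3.04 and 3.06 in control fins, all called. From 12 to 24 h the signal dropped by 0.92 in memory fins (adjusted p = 0.021) and dropped by 1.17 in control fins (adjusted p = 0.00931). The memory drop lost its call without memory 12 h replicate 1 or 2 or memory 24 h replicate 1 (adjusted p = 0.067, 0.0599 and 0.0522). The control drop lost its call without control 12 h replicate 2 or control 24 h replicate 3 (adjusted p = 0.0631 and 0.0778). It was also lost in a fit of the 2 groups alone (adjusted p = 0.121).

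Memory fins had 2.19-fold less igfbp1a signal than control fins at 12 h (-1.13 ± 0.30, adjusted p = 0.00615) and 2.72-fold less at 48 h (-1.44 ± 0.30, adjusted p = 0.00922). At 24 h the difference of -0.88 did not pass (adjusted p = 0.116), and it passed without control 24 h replicate 3, the lowest of its group (adjusted p = 0.0167). At 0 h memory was 0.58 higher, which was not called (adjusted p = 0.289). The memory effect had changed from 0 h by -1.71 ± 0.43 at 12 h (adjusted p = 0.007) and -2.02 ± 0.43 at 48 h (adjusted p = 0.0125), while the -1.46 at 24 h missed the threshold (adjusted p = 0.0736). The 24 h change passed without control 0 h replicate 3 or control 24 h replicate 3, with adjusted p = 0.0229 and 0.0137. Averaged over the 4 times, the memory minus control difference was -0.72 ± 0.15 (adjusted p = 0.0014).

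The second igfbp1a probe set followed the first, with group means correlated at 0.998 over the 8 groups and the same 13 of 20 comparisons called. Its memory minus control difference was -1.04 at 12 h, -0.77 at 24 h and -1.32 at 48 h, with adjusted p = 0.00637, 0.14 and 0.00952. Unlike on the first probe set, the arms overlapped at 24 h. The drop from 12 to 24 h in memory fins was 0.76 (adjusted p = 0.0364) and lost its call under 8 of 16 alternatives. Leaving out memory 48 h replicate 3 ended the 48 h call (adjusted p = 0.0515). The memory effect had changed from 0 h by -1.51 at 12 h and -1.79 at 48 h (adjusted p = 0.00921 and 0.0149). Both probe sets carry the same gene, so they are not independent evidence.

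The binding protein gene igfbp2a dropped to the lower part of the signal range after amputation. In mammals IGFBP2 is an abundant serum and tissue carrier that mostly restrains the ligand. Its probe set read 6.97, 6.18 and 6.39 in memory fins and 6.57, 6.09 and 6.20 in control fins at 0 h. At 12, 24 and 48 h all 18 arrays read between 2.60 and 3.27, with group means between percentiles 18.7 and 23.9. The 0 h arrays thus lay far above all later ones, and the arms overlapped at 0, 24 and 48 h. The probe set reached 4 on the 6 arrays of 0 h and on no later one, so it entered the test through the arrays where it was high.

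The size of the fall of igfbp2a can therefore be given only as a bound. With the later arrays set to 4, the signal after 0 h was at least 5.72-fold lower in memory fins and at least 4.88-fold lower in control fins. The fitted changes, between -3.88 and -3.65 in memory fins and between -3.57 and -3.48 in control fins, were all called but end below that level, so they do not measure the fall. No memory minus control difference was called, at 0.23 at 0 h, 0.07 at 12 h, -0.08 at 24 h and 0.06 at 48 h, and the 95% interval at 0 h ran from -0.12 to 0.58. After 0 h the low signal limits what such a difference can show.

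The gene igfbp3, in mammals the main carrier of IGF in serum, fell in both arms. From 12 to 24 h it then rose more in memory fins, from a lower level at 12 h. The first of its 2 probe sets read 6.55, 6.71 and 6.80 in memory fins at 0 h and 4.11, 4.42 and 3.55 at 12 h, then 5.75, 5.41 and 5.38 at 24 h and 5.78, 5.91 and 5.83 at 48 h. Control fins read 6.44, 7.00 and 7.14 at 0 h and 5.04, 5.02 and 4.53 at 12 h, then 4.91, 5.26 and 5.17 at 24 h and 5.08, 5.39 and 5.09 at 48 h. Memory arrays were all below control arrays at 12 h and all above them at 24 and 48 h, and the arms overlapped at 0 h.

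Against 0 h, igfbp3 fell in both arms on the first probe set, with changes of -2.66, -1.18 and -0.85 at 12, 24 and 48 h in memory fins and of -2.0, -1.75 and -1.67 in control fins, all called. The second probe set had changes of -2.85, -1.28 and -0.82 in memory fins and of -2.28, -1.91 and -1.65 in control fins, all called as well. Its group means correlated with those of the first at 0.996. From 12 to 24 h the probe sets rose by 1.49 and 1.57 in memory fins (adjusted p = 6.14e-06 and 8.81e-07). In control fins the same step was 0.25 and 0.36 and was not called.

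At 12 h igfbp3 was lower in memory than in control fins, by -0.84 ± 0.20 and -0.87 ± 0.18 on the 2 probe sets (adjusted p = 0.00253 and 0.000818). A fit of the 2 groups alone gave adjusted p = 0.0522 and 0.0545, so these calls were lost in it. At 48 h memory was 0.65 and 0.54 above control, which did not pass (adjusted p = 0.0581 and 0.0812). The first lay close to the threshold and passed with the filter at log2 6, after repeated quantile normalisation and in a fit of these 2 groups alone (adjusted p = 0.0498, 0.0449 and 0.0237), and the second in that fit (adjusted p = 0.0295). With a replicate block the first probe set passed as well. The change in the memory effect from 12 to 24 h was 1.23 ± 0.28 and 1.21 ± 0.26 (adjusted p = 0.00569 and 0.00329, added after the values had been seen) and held with each array concerned left out. From 0 to 12 h that change was -0.66 and -0.57, which did not pass (adjusted p = 0.094 and 0.11). Some arrays decided that: the first probe set passed without control 12 h replicate 3 or memory 12 h replicate 2 (adjusted p = 0.0392 and 0.0322), and the second without memory 12 h replicate 1 (adjusted p = 0.0383).

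The gene igfbp5b, whose mammalian counterpart binds IGF in bone and connective tissue matrix, had group means that spanned 1.02 log2 units, the least among the genes with a span of at least 1, and arrays of a group lay close together. Its probe set read 9.24, 9.08 and 9.01 in memory fins at 0 h and 8.95, 8.96 and 9.03 at 12 h, then 9.91, 9.92 and 10.04 at 24 h and 9.95, 10.05 and 10.01 at 48 h. Control fins read 9.12, 9.06 and 9.09 at 0 h and 9.43, 9.58 and 9.55 at 12 h, then 9.86, 10.02 and 9.90 at 24 h and 9.68, 9.54 and 9.56 at 48 h. Memory arrays were all below control arrays at 12 h and all above them at 48 h, and the arms overlapped at 0 and 24 h.

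In memory fins igfbp5b had not moved at 12 h beyond the spread (-0.13, adjusted p = 0.172) and rose by 0.85 and 0.90 at 24 and 48 h. In control fins it had risen by 0.43 at 12 h (adjusted p = 7.41e-05), by 0.84 at 24 h and by 0.51 at 48 h. The memory minus control difference was -0.54 ± 0.08 at 12 h (1.45-fold lower, adjusted p = 3.09e-05) and 0.41 ± 0.08 at 48 h (1.33-fold higher, adjusted p = 0.00626). It was 0.02 at 0 h and 0.03 at 24 h, neither called. The memory effect changed by -0.55 ± 0.11 from 0 to 12 h (adjusted p = 0.00159) and by 0.57 ± 0.11 from 12 to 24 h (adjusted p = 0.00222, added after the values had been seen). Its change from 0 to 48 h, 0.39 ± 0.11, missed the threshold (adjusted p = 0.0534), as did that from 24 to 48 h, 0.38 ± 0.11 (adjusted p = 0.384). The change from 0 to 48 h lay close to the threshold and passed under 7 of 22 alternatives, among them no filter, the filter at log2 6, no moderation, median centring and leaving out memory 0 h replicate 1 (adjusted p = 0.0258, 0.0385, 0.0218, 0.04 and 0.0335). Over all 22 the adjusted p ran from 0.0218 to 0.13.

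Set beside the whole array, the number of IGF probe sets that changed over time was close to the background. Against 0 h, 7, 9 and 7 of the 10 were called at 12, 24 and 48 h in memory fins, where 69.6%, 68.3% and 69.8% of all tested probe sets were called. In control fins 8, 8 and 7 were called, where the share of all probe sets was 68.5%, 68.4% and 69.9%. The median absolute change at 12 h was 1.62 in memory and 2.10 in control fins, beside 0.61 over all tested probe sets in each arm. These counts and medians include igfbp2a, which entered the test through its 0 h arrays alone. They also include the first igf1rb probe set, which entered through arrays of 12 and 24 h alone. They hold 2 probe sets each for igf1rb, igfbp1a and igfbp3, so the 10 stand for 7 genes.

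For the step from 12 to 24 h, 8 of 10 were called in memory fins, against a background of 39.6%, and 5 of 10 in control fins, against 20.1%. Leaving out memory 12 h replicate 1 or 2 left 5 calls in memory fins, and leaving out control 12 h replicate 2 or control 24 h replicate 3 left 2 in control fins. These steps cross the shift of the hybridisation controls given above. From 24 to 48 h 1 was called in memory fins, the rise of igf2a, against 27.4%, and 3 in control fins, against 30.9%.

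**Figure D2:**
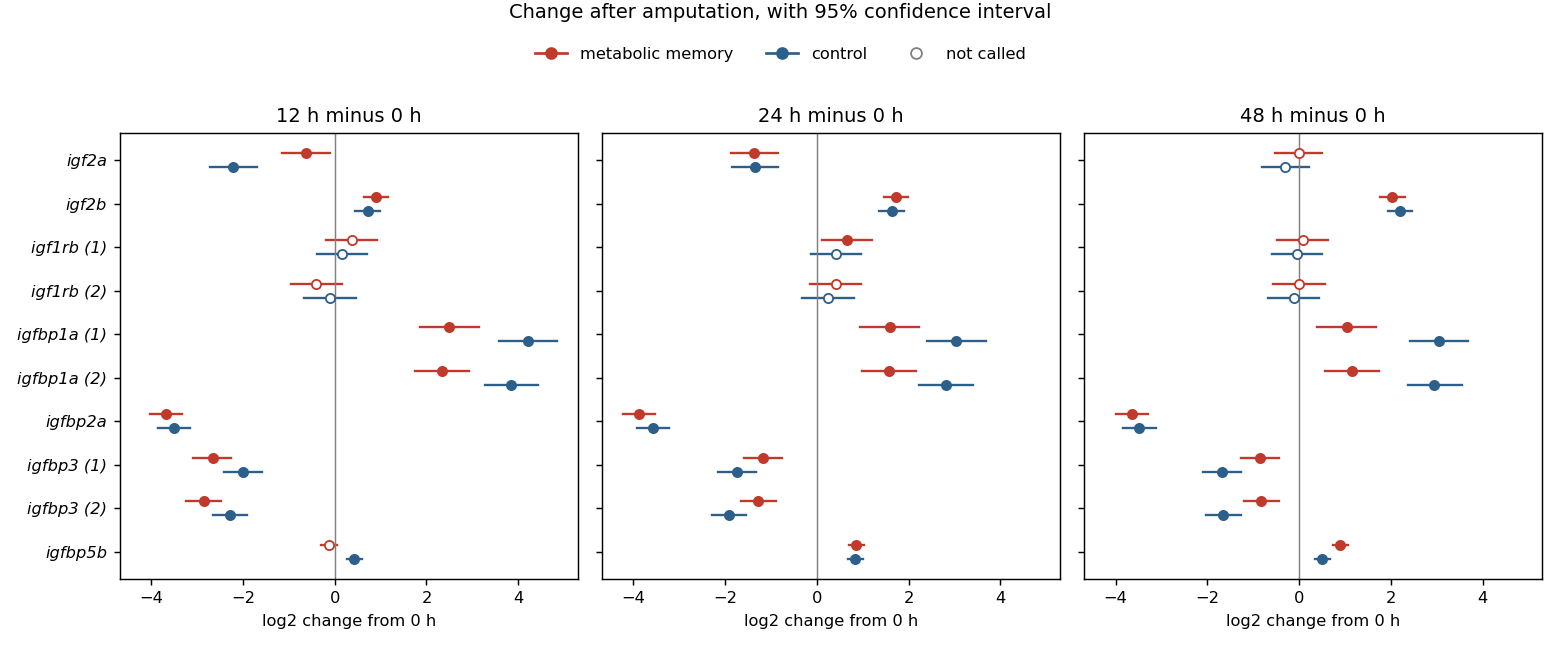
Log2 change from 0 h at 12, 24 and 48 h for the 10 tested probe sets, memory (red) above control (blue), with 95% confidence intervals and open points where the adjusted p was not under 0.05. The igfbp2a points end below a log2 signal of 4 and do not measure the size of its fall. At 12 h igf2a sits at -0.63 in memory and -2.21 in control fins, and the first igfbp1a probe set at 2.50 in memory and 4.22 in control fins.

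Between the arms, none of the 10 probe sets differed at 0 h, also at an unadjusted p, while 5.52% of all probe sets were called by limma. At 12 h 6 were called, 1 higher and 5 lower in memory fins, against a background of 36.2%, or 15.5% higher and 20.7% lower. These were igf2a on the higher side and both probe sets of igfbp1a, both of igfbp3 and that of igfbp5b on the lower side. Counted by gene, 4 of 7 were called, beside 37.6% of all genes tested. At 24 h 0 were called by limma, against 3.38% of all probe sets, and 2 had an unadjusted p under 0.05. At 48 h 3 were called, igfbp5b higher and both igfbp1a probe sets lower, against 5.69%, or 2.75% higher and 2.94% lower. By gene this was 2 of 7, beside 5.53% of all genes tested.

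For the change in the memory effect, 4 of 10 were called at 12 h (background 23.5%), 0 at 24 h (2.50%, with 3 at an unadjusted p under 0.05) and 2 at 48 h (4.38%). From 12 to 24 h 4 were called, those of igf2a, igfbp3 and igfbp5b, beside 16.4% of all probe sets. From 24 to 48 h 0 were called by limma and 1 had an unadjusted p under 0.05, beside 0.0394% of all. For the mean of the 4 times, 3 were called, against 32.8%. At 12 h the memory arm thus had more igf2a ligand signal and less signal of 3 binding protein genes on the same arrays, with igf2b, igf1rb and igfbp2a not called.

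**Figure D3:**
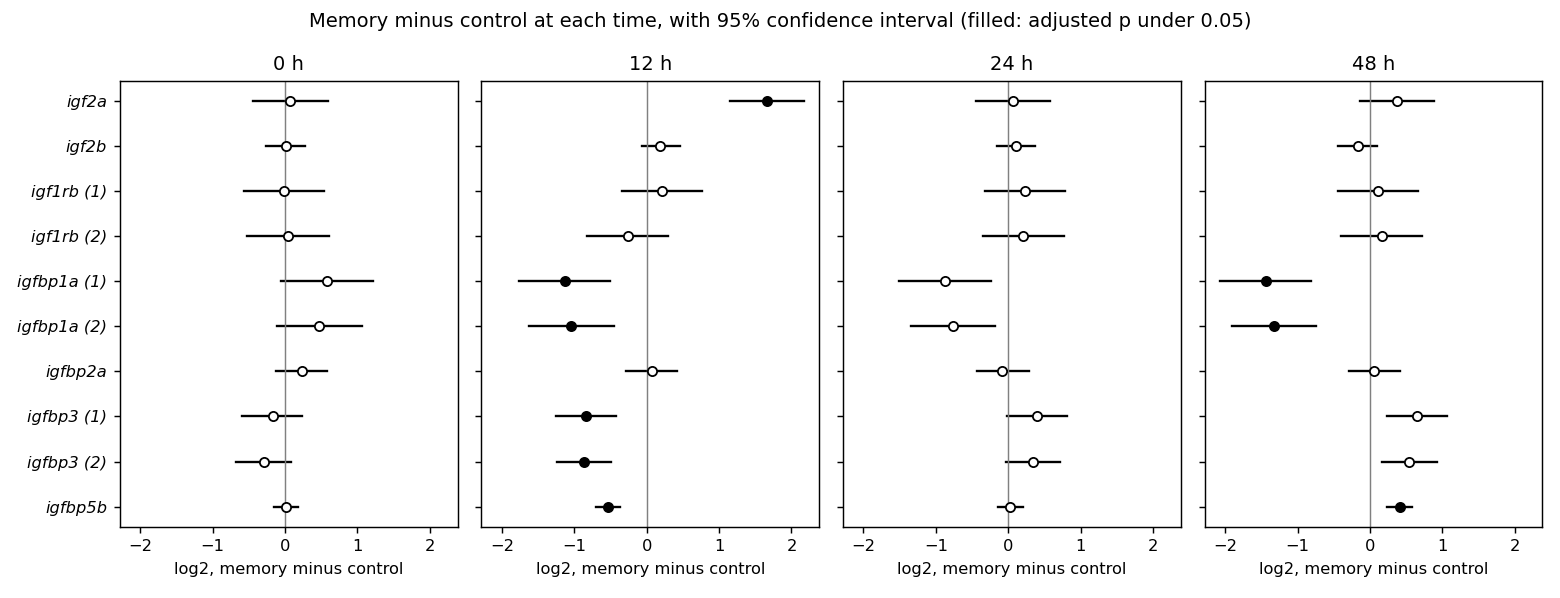
Log2 difference, memory minus control, at 0, 12, 24 and 48 h for the 10 tested probe sets, with 95% confidence intervals and filled points where the adjusted p was under 0.05. At 12 h igf2a is at 1.66 and both igfbp1a probe sets, both igfbp3 probe sets and igfbp5b lie below 0, and at 48 h igfbp5b is at 0.41 with igfbp1a at -1.44 and -1.32.

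For each gene whose group means spanned at least 1 log2 unit, the 2 genes with the most similar course were sought among 4271 probe sets of other genes with at least that span, by Pearson correlation over the 8 group means. The means come from the same 24 arrays, and 8 points are few for a correlation. The closest to igf2a were slc25a43 at 0.933 and angptl7 at 0.931. The angptl7 product is a secreted angiopoietin-like protein, and its gene averaged 7.71 in memory and 5.55 in control fins at 12 h. The closest to igf2b were gpd1l at 0.992 and lgals9l3 at 0.984. The gpd1l means lay below log2 4 at 0 h, at 3.16 in memory and 3.12 in control fins. At 12 h they were 3.84 and 4.04, so the early part of its course is uncertain. The closest to igfbp1a were dnaja1, a heat shock co-chaperone, at 0.979 and 0.978 on its 2 probe sets, fosl2, an AP-1 transcription factor, at 0.975, and zpr1 at 0.979. For igfbp2a the highest values were those of agfg2 and ccl44 at 0.999 each, both with high group means at 0 h and low ones at all later times. Because igfbp2a entered the test through its 0 h arrays alone, that shape by itself gives a correlation near 1. These 2 values therefore tell nothing more about a shared course. The closest to igfbp3 were pik3c3 at 0.983 and 0.989, pleca at 0.977 and ppm1la at 0.981. The closest to igfbp5b were lipt1 at 0.977 and etv5b, an ETS factor downstream of FGF signalling, at 0.968. The lipt1 means at 0 and 12 h lay between 3.22 and 3.70, below log2 4, so that part of its course is uncertain.

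Of 129 other genes listed for insulin and IGF signalling, 57 were on the array and 43 were tested. The ligand gene igf1 read 2.15 to 3.11, ins and insb, the insulin genes, 1.74 to 2.05 and 2.19 to 2.46, and the second copies insrb and igfbp1b 1.80 to 2.28 and 2.40 to 2.76, so none of them could be followed. At 12 h against 0 h, 11 of the 43 genes rose and 21 fell in memory fins, and 10 rose and 22 fell in control fins. Of all 6451 genes tested, 39.5% rose and 32.2% fell in memory fins, and 41.6% rose and 29.0% fell in control fins. The median change was -0.38 in memory and -0.32 in control fins, beside 0.07 and 0.13 over all genes tested. At 48 h 9 rose and 23 fell in each arm, while of all genes 43.8% rose and 27.9% fell in memory fins and 43.3% rose and 27.8% fell in control fins.

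Of these genes, eif4ebp3l, which holds back cap-dependent translation, changed by -3.74 in memory and -3.40 in control fins at 12 h. The stress-induced mTOR inhibitor genes sesn3 and ddit4 changed by -3.65 and -2.76 in memory fins and by -2.92 and -3.47 in control fins. The transcription factor gene foxo3b, whose product Akt keeps out of the nucleus, changed by -3.26 in memory and -2.86 in control fins, and all these falls were called. The largest rise was that of socs3b, a cytokine-induced brake on receptor signalling, by 2.70 in memory and 3.44 in control fins. The gene grb2b, an adaptor between receptor and Ras, rose by 1.15 in memory and 0.87 in control fins, and rps6kb1b, a ribosomal S6 kinase, by 0.88 and 1.02. The insulin receptor gene insra changed by -1.25 at 12 h and -1.77 at 48 h in memory fins, both called, and in control fins by -0.42 at 12 h, not called, and -0.99 at 48 h, called.

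Between the arms at 12 h, 4 of the 43 genes were higher and 10 lower in memory fins, with a median difference of -0.11 beside -0.05 over all genes. Of all genes tested 14.2% were higher and 23.4% lower, so this count was no larger than the background. The phosphatase gene ptpn1, whose product removes phosphate from the insulin receptor, was 1.09 ± 0.19 higher (adjusted p = 0.000128), and dusp6, which switches off MAP kinase, was 0.47 ± 0.13 higher (adjusted p = 0.0078). The genes akt1s1, an Akt target in the mTOR complex, and sesn3 differed by -1.13 each (adjusted p = 1.11e-05 and 0.000496). The adaptor gene grb2a differed by -0.86 and the translation repressor gene eif4ebp1 by -0.78 (adjusted p = 2.8e-05 and 2.11e-06). The grb2a mean at 12 h was 3.49 in memory fins, below log2 4, and 4.35 in control fins, so the size of its difference is uncertain. For eif4ebp1 the memory effect had changed from 0 h by -0.88 ± 0.13 (adjusted p = 8.75e-05), and for insra by -0.83 ± 0.27 (adjusted p = 0.0288). At 0 h 1 of the 43 genes was higher and 1 lower in memory fins, at 24 h 2 and 1, and at 48 h 1 and 2. Of all genes tested, 4.12% were higher and 1.83% lower at 0 h. The shares were 1.46% and 1.89% at 24 h, and 2.82% and 2.71% at 48 h.

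**Figure D4:**
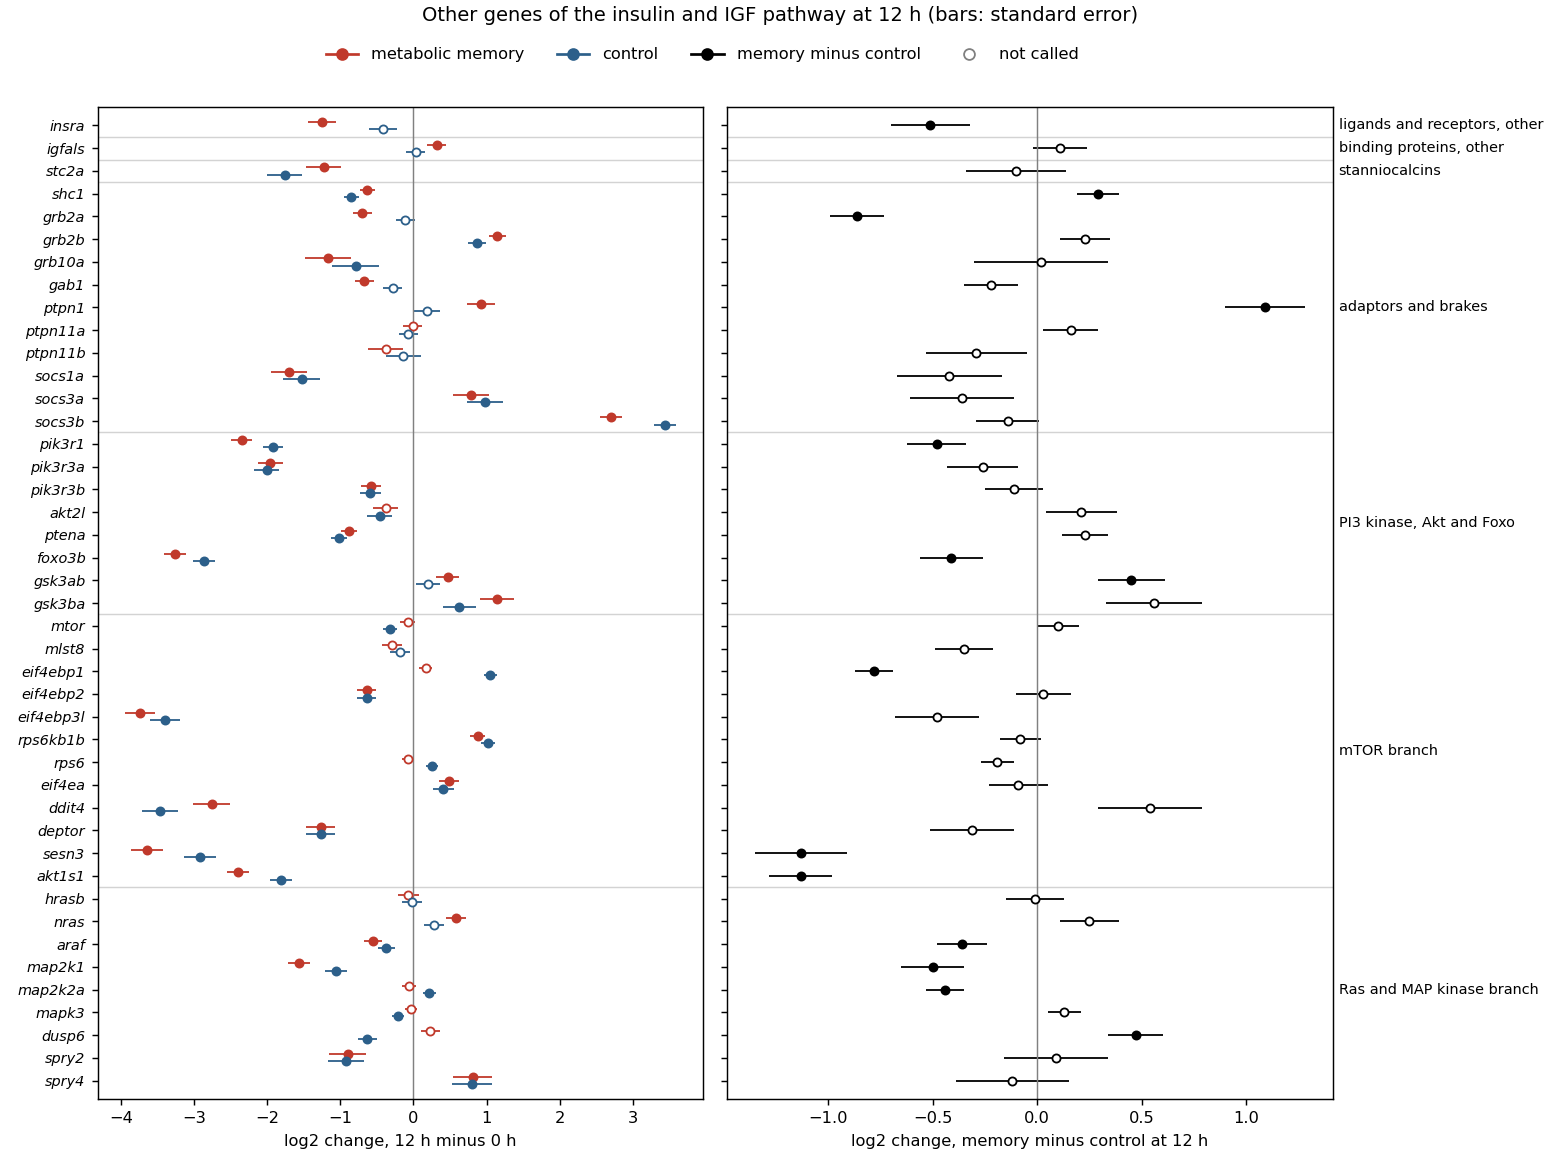
The 43 tested genes of the insulin and IGF pathway outside the 8 described, grouped by place in the pathway. The left panel gives the log2 change from 0 to 12 h in memory (red) and control (blue) fins and the right panel memory minus control at 12 h, bars being standard errors and open points not called. Genes of the PI3 kinase and mTOR groups such as eif4ebp3l and foxo3b lie far left in both arms, and ptpn1 stands at 1.09 in the right panel.

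Markers of some cell types moved with the arms. For scale, 14.2% of all genes tested were higher and 23.4% lower in memory fins at 12 h. At 12 h, when most of the memory differences above were seen, 8 of 12 epidermis markers were higher and 0 lower in memory fins. The list means were 11.89 to 12.01 on memory and 11.40 to 11.50 on control arrays. They include krt1-19e, which averaged 7.66 in memory and 5.54 in control fins. Of 9 osteoblast markers 0 were higher and 4 lower, with 7.37 to 7.68 on memory and 7.46 to 7.92 on control arrays. Some of the 9 had low signal at 12 h. The ifitm5 means were 3.23 in memory and 2.84 in control fins, those of phex 3.59 and 3.66, and those of runx2b 4.08 and 3.89. Such levels limit what these genes and the list mean can show. The neutrophil list held 5 genes, mpx, lyz, mmp9, mmp13a and cpa5, and 2 of them were higher. These were mmp9 by 1.5 and mmp13a by 3.06, both of which other wound cells also make. The genes mpx and lyz, the defining enzymes of neutrophils, differed by 0.44 and 0.49 and were not called (adjusted p = 0.191 and 0.0611). Their means at 12 h lay below log2 4, at 3.78 and 3.24 in memory and 3.33 and 2.76 in control fins. This low signal limits what the 2 differences can show. The group means of cpa5 lay low, between 2.44 and 4.22. The 5-marker mean, which thus does not stand for neutrophils alone, was 6.88 to 7.18 on memory and 5.87 to 6.00 on control arrays. Both endothelium markers and 2 of 3 nerve markers were higher in memory fins, and 0 of 4 macrophage markers were called. Of the nerve markers, sox10 averaged 3.67 in memory and 3.27 in control fins at 12 h, below log2 4. Only gap43 lay well above that level in both arms, at 8.51 in memory and 7.8 in control fins. The low signal limits what the count of nerve markers can show. At 0 h, which enters the changes in the memory effect, mpx and lyz were 1.56 and 1.17 higher in memory fins (adjusted p = 0.00134 and 0.00173). The lyz mean was 7.91 in memory and 6.75 in control fins. The mpx mean was 5.38 in memory and 3.82 in control fins, and no later group mean of mpx reached log2 4. Thus mpx entered the test mainly through the memory arrays of 0 h. Its 0 h call rests on the arrays that admitted it, and 1.56 does not measure the size of the difference. The 5-marker mean at 0 h was 6.97 to 7.48 on memory and 6.02 to 6.46 on control arrays. It was 6.29 to 6.47 on memory and 5.85 to 6.12 on control arrays at 24 h, and 6.21 to 6.56 and 5.89 to 6.11 at 48 h. Averaged over the 4 times, all 5 genes of the neutrophil list and 7 of 12 epidermis markers were higher in memory fins. After 0 h the group means of mpx lay at 3.18 to 3.78 and those of lyz at 2.68 to 3.24, below log2 4. Of all tested probe sets 32.8% were called in either direction. The share of all genes that were higher was not counted for this mean, so the counts have no like background.

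Genes known to respond to low oxygen were counted because igfbp1a is one of them. Of 16 tested, 9 rose and 5 fell from 0 to 12 h in each arm. Of all genes tested, 39.5% rose and 32.2% fell in memory fins, and 41.6% rose and 29% fell in control fins. Between the arms at 12 h, 7 were higher and 2 lower in memory fins, whereas igfbp1a was lower. At 48 h 5 were higher and 1 lower. Of all genes tested, 14.2% were higher and 23.4% lower at 12 h, and 2.82% and 2.71% at 48 h. At 12 h the hypoxia gene ndrg1a was 2.32 ± 0.17 higher in memory fins and hk2, a hexokinase, 1.12 ± 0.15 higher (adjusted p = 8.8e-09 and 6.21e-06). At that time bnip3, a mitochondrial cell death protein, was lower (-1.54 ± 0.14, adjusted p = 7.57e-08). The part of these cell type markers and low-oxygen genes in the IGF results was not tested.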

How the data were processed

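Fin RNA, 6 ug per sample by the labels, was read on 24 Affymetrix zebrafish arrays. The authors deposited log2 signals, made with GCRMA run in Partek according to the submitters' processing notes (versions not given in the sources used here). GCRMA corrects background, normalises between arrays and summarises probes, so low signals are compressed. With 3 arrays per group, their number limits the precision.

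Groups came from the labels. The file holds 15617 probe sets, 115 of them array controls, and the 10140 others that reached log2 4 on 3 or more arrays were tested. Symbols came from the platform annotation, and 10718 of 10802 probe sets with 1 symbol matched a RefSeq table by gene number. Using limma 3.58.1 (R 4.3.3, eBayes), 1 mean was fitted for every group, and called means a Benjamini-Hochberg adjusted p under 0.05 over all tested probe sets. Of the 20 comparisons, the changes in the memory effect from 12 to 24 h and from 24 to 48 h were added after the values had been seen. The code was tested on simulated data.

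All IGF probe sets are described. Other genes with several probe sets were represented by the one with the highest mean. Of other pathway genes up to 4 called in each direction per comparison could be named and followed, and of marker and low-oxygen genes up to 3 by size of change; mpx and the untested genes were added after their values were seen. The members and lists were chosen with earlier results of these data known.

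Alternatives were another filter or none, trend and robust moderation, no moderation, median centring, repeated quantile normalisation, a replicate block, only the groups compared, a 2-fold minimum, the mean of a gene's probe sets, and leaving out each array. Deviations from the group means correlated at -0.225 to 0.37 between arrays with the same replicate number, and the arrays were not treated as paired.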

Additional observations from a re-analysis of the deposited data

Results flagged for a closer look

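These 10 values were marked because the memory effect differed between 2 times by a test of that difference. From 0 to 12 h the memory effect on igf2a changed by 1.58 ± 0.35 (log2, SE), on igfbp5b by -0.55 ± 0.11, and on the 2 probe sets of igfbp1a by -1.71 ± 0.43 and -1.51 ± 0.40. From 0 to 48 h it changed on the igfbp1a probe sets by -2.02 ± 0.43 and -1.79 ± 0.40. From 12 to 24 h it changed on igf2a by -1.60 ± 0.35, on the igfbp3 probe sets by 1.23 ± 0.28 and 1.21 ± 0.26, and on igfbp5b by 0.57 ± 0.11. Each kept its call in limma when every array concerned was left out in turn. The groups have 3 arrays each, too few for an outlier to be marked within a group.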

How the results depend on the processing

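Of 85 called results of single probe sets, 72 kept their call under every alternative other than the 2-fold minimum, and none reversed among 1469 alternative values. Of 115 results not called, 37 of 2161 alternative values passed the threshold. No alternative of scaling, filter or moderation changed a count of calls by over 1.5 times. A replicate block left every called result called, and added 3 calls, each of igfbp3: calls were 2 instead of 1 for memory 48 h against 24 h, 4 instead of 3 for memory against control at 48 h, and 3 instead of 2 for the change in the memory effect at 48 h (adjusted p = 0.0486, 0.0449 and 0.0486). Among the 84 same-number pairs of arrays the median correlation of deviations was 0.0246, beside -0.00928 for pairs of other numbers. Of 24 arrays, 15 correlated best with their own number, more than an even split over the replicate numbers would give. What the numbers share was not tested. With only the groups compared in the fit, calls were 1 instead of 5 for control 24 h against 12 h, 4 instead of 1 for memory 48 h against 24 h, and 6 instead of 3 for memory against control at 48 h. With the 2-fold minimum, calls were 2 for control 24 h against 12 h, 1 for control 48 h against 24 h, 4 for memory 48 h against 0 h, 2 for memory 24 h against 12 h, 3 for memory against control at 12 h and 0 for the mean of the 4 times, in place of 5, 3, 7, 8, 6 and 3; this rule removes changes under 1 log2 unit by construction. The cause of the other shifts was not tested. Leaving out single arrays gave 2 to 5 calls for control 24 h against 12 h, 6 to 7 for memory 12 h against 0 h, 8 to 9 for memory 24 h against 0 h, 5 to 7 for memory 24 h against 12 h, 0 to 2 and 2 to 3 for memory against control at 24 and 48 h, and 4 to 5, 0 to 2 and 2 to 3 for the change in the memory effect at 12, 24 and 48 h. It changed no other count.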

Other observations

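Some of the 43 other pathway genes were called between the arms at 24 and 48 h. The gene dusp6, a MAP kinase phosphatase, was 0.47 ± 0.13 higher in memory fins at 12 h and lower at 24 and 48 h, with differences of -0.61 ± 0.13 and -0.58 ± 0.13 (SE, n = 3 each, adjusted p = 0.0078, 0.0155 and 0.0136, limma). The Ras gene hrasb was 0.58 higher at 24 h and 0.82 higher at 48 h (adjusted p = 0.0264 and 0.00235). The mTOR inhibitor gene deptor was 0.96 higher at 24 h (adjusted p = 0.0131), and socs3a, a brake on cytokine receptors, differed by -1.13 at 48 h (adjusted p = 0.0129). At 0 h socs3b was 0.60 higher and akt1s1 differed by -0.55 (adjusted p = 0.0223 and 0.0417). These were all of the calls among the 43 genes at 0, 24 and 48 h. Of all genes tested, 5.95%, 3.35% and 5.53% were called at these times.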
